A study of Rattus norvegicus with 8 samples.

Results

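Iron storage, transport and heme turnover were followed in rat liver through 10 genes: Ftl1, Fth1, Tf, Tfrc, Cp, Aco1, Hmox1, Hmox2, Alas1 and Blvra. The platform's annotation names 5147 genes. On this Affymetrix Rat Genome U34 array (version A), 18 of the 8740 probe sets that are not controls carried one of the 10 symbols. Of the 18, 12 were matched to 1 symbol and 6 to several, namely the 2 for Ftl1, the 1 for Fth1 and the 3 for Tf. Liver RNA came from 8 male Fischer 344 rats, with 1 array per rat. By gavage, 4 rats received D3T (3H-1,2-dithiole-3-thione, 0.3 mmol for each kg of body weight) in saturated sucrose and 4 received 0.2 ml of the saturated sucrose alone. Dosing was on days 1, 3 and 5, which the labels state for the D3T rats and for 3 of the 4 vehicle rats, and not for vehicle replicate 2. Every rat ate AIN 76A chow, and the labels give each an age of 6 without a unit. No time between the last dose and sampling was used here. The values are array signals, so precision is limited by the number of arrays.

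Ferritin is a cage of light and heavy chains that stores iron inside cells. Transferrin carries iron in plasma and enters cells through its receptor, and ceruloplasmin, a copper oxidase of plasma, loads iron onto transferrin. Heme oxygenases open the heme ring and release iron, carbon monoxide and biliverdin, which biliverdin reductase turns into bilirubin. When cellular iron is low, iron regulatory proteins, one of them the cytosolic aconitase encoded by Aco1, bind a hairpin in messenger RNAs, which holds back translation of ferritin and stabilises the message of the transferrin receptor. D3T belongs to the dithiolethiones, known to raise protective enzymes by way of NRF2, the product of Nfe2l2. Ferritin chains, heme oxygenase-1 and biliverdin reductase are among the genes known to carry binding sites for that factor, the antioxidant response elements.

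For orientation, the 250 bases before the gene start are shown for Cp, which had a called probe set, and for Blvra and Hmox2, whose stretches hold the core of the antioxidant response element. The sequences are from RefSeq (GRCr8). The core was searched as TGACNNNGC on both strands and is in capitals where found. Cp lies on the plus strand at chr2:104368420-104368669, Blvra on the plus strand at chr3:134802660-134802909, and this start of Hmox2 on the minus strand at chr10:11337613-11337862.
Cp: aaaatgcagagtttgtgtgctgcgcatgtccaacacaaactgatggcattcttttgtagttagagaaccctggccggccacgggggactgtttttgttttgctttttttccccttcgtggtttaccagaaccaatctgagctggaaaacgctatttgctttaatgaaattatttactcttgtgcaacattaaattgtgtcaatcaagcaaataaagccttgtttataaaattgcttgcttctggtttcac
Blvra: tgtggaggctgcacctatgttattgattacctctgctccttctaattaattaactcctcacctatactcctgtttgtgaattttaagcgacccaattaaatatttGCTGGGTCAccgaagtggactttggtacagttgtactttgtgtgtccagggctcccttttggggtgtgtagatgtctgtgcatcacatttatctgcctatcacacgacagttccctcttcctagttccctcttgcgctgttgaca
Hmox2: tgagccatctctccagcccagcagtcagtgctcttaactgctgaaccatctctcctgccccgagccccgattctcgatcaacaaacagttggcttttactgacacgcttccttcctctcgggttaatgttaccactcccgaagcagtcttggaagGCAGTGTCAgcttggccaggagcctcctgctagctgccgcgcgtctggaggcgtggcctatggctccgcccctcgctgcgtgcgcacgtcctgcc
The match began 145 bases before the start of Blvra and 95 bases before that of Hmox2, and both lay on the strand opposite to the gene. The table held 8 starts for 7 of the 10 genes, all but Ftl1, Fth1 and Hmox1, and these 2 starts were the ones with a match, whereas 10.1% of the 33469 promoters in the table held one. A match of letters is not a binding site, and its absence from this window says nothing of the factor.

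After D3T the ferritin light chain signal was higher, the heavy chain signal was not called, and 1 of 3 ceruloplasmin probe sets was lower. The signal of the light chain probe set rc_AI231807_at was 1.77-fold higher (95% confidence interval 1.5 to 2.1). The ceruloplasmin probe set Y12178_at was 2.12-fold lower (1.53 to 2.95). Transferrin signals were 1.33-fold to 1.54-fold higher without passing the threshold, and both heme oxygenase-1 probe sets had negative changes that did not pass either. With limma and a Benjamini-Hochberg adjusted p under 0.05 as the threshold, 3 of the 18 probe sets passed (16.7%), 2 higher and 1 lower, where 10.7% of all 5244 tested probe sets passed, 4.2% higher and 6.48% lower. Of the 12 probe sets with 1 symbol, 1 passed (8.33%), and it was lower. Of the 6 with several symbols, 2 passed (33.3%), both higher. Both that were higher belong to 1 gene family and 1 sequence entry. The groups of arrays did not overlap for the same 3 probe sets, against 19.2% of all tested (7.89% with all D3T arrays higher and 11.3% with all lower). The median log2 fold change of the 18 was 0.16, and that of all tested probe sets 0.02. The 2 kinds of probe set differed in sign. The median was -0.16 for the 12 with 1 symbol, 5 positive and 7 negative. It was 0.59 for the 6 with several symbols, all positive.

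**Figure D1:**
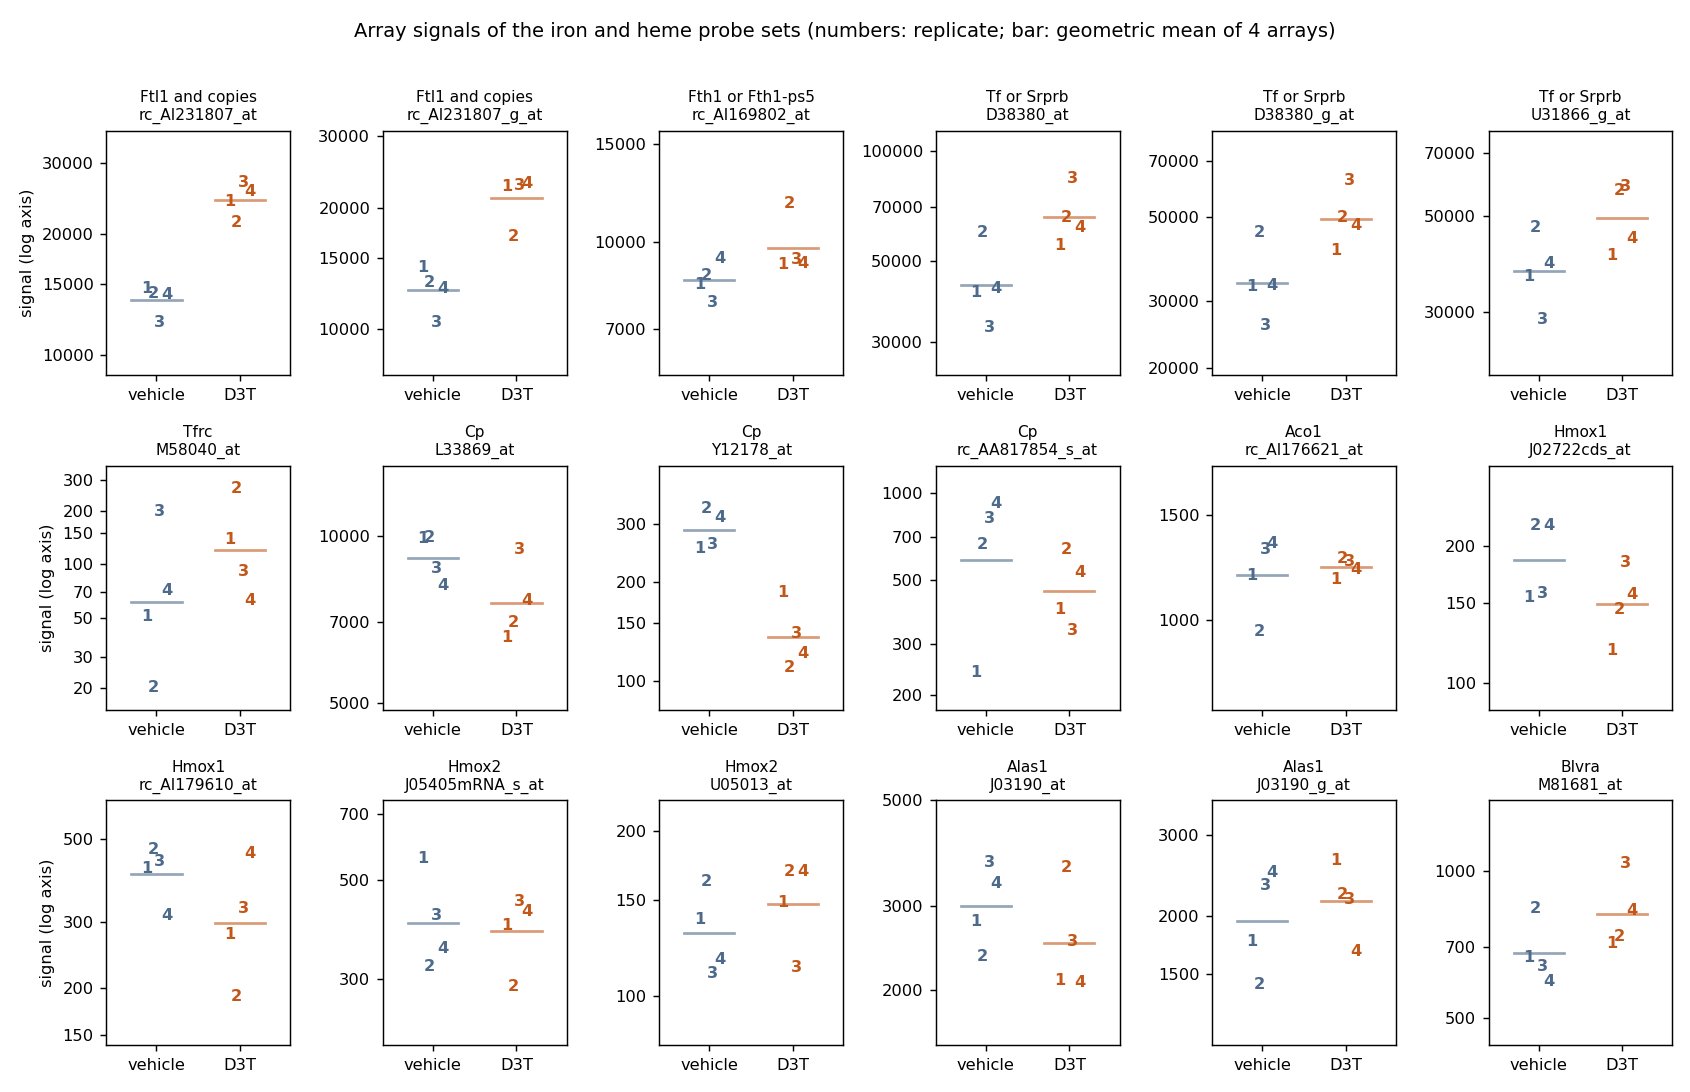
Signal of each of the 18 iron and heme probe sets on the 8 arrays. The vertical axes are logarithmic and differ between panels, each digit marks the array of that replicate number (vehicle in blue, D3T in orange), and the bar is the geometric mean of 4 arrays. The arrays of the groups stand apart for both Ftl1 probe sets, where D3T is higher, and for Y12178_at of Cp, where D3T is lower.

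The ferritin light chain is the ferritin subunit that favours mineral formation inside the cage. Probe set rc_AI231807_at read 14576, 14212, 11997 and 14144 on vehicle arrays 1 to 4, and 24079, 21283, 26766 and 25422 on D3T arrays 1 to 4. Every D3T array lay above every vehicle array. The means were 13732 ± 1172 (SD, n = 4) and 24388 ± 2343, and the log2 fold change was 0.83 ± 0.11 (SE), with a limma adjusted p of 0.00172. Probe set rc_AI231807_g_at, from the same sequence entry and so no independent measurement, read 14190, 13018, 10371 and 12595 in vehicle and 22514, 16964, 22741 and 22968 after D3T. Its D3T arrays again lay wholly above the vehicle arrays, with D3T replicate 2 lowest among them. The change was 1.7-fold (1.38 to 2.09, log2 fold change 0.76 ± 0.14, limma adjusted p = 0.00810). Among the 220 probe sets called higher, 101 had a larger change than the first of these and 119 a larger one than the second. The annotation matches them to 9 and 8 symbols, which are Ftl1, its near copies and Ripor2, so the signal cannot be given to Ftl1 alone.

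The ferritin heavy chain carries the site that oxidises iron on its way into the cage. Its probe set rc_AI169802_at, matched to Fth1 and the pseudogene Fth1-ps5, read 8382, 8721, 7799 and 9357 in vehicle. After D3T it read 9113, 11734, 9328 and 9142. The groups overlapped, since vehicle replicate 4 lay above 3 of the 4 D3T arrays, and D3T replicate 2 stood above the rest. The means were 8565 ± 651 (SD, n = 4) and 9829 ± 1274, the change was 1.14-fold (0.958 to 1.36), and limma gave an adjusted p of 0.289.

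The light and heavy chains were then compared within each array, as the log2 ratio of rc_AI231807_at to rc_AI169802_at. This ratio was 0.80, 0.70, 0.62 and 0.60 in vehicle and 1.40, 0.86, 1.52 and 1.48 after D3T. All D3T arrays lay above all vehicle arrays, with D3T replicate 2 close to vehicle replicate 1. The difference between the group means was 0.63 on the log2 scale, a 1.55-fold larger change of the light chain signal. The exact two-sided permutation test gave p = 0.0286, the smallest that 4 arrays against 4 allow. With quantile normalization the difference was 0.49 and the exact permutation p 0.0571. Because the scale of a probe set is its own, the ratio shows unequal change and not which chain was more abundant.

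**Figure D2:**
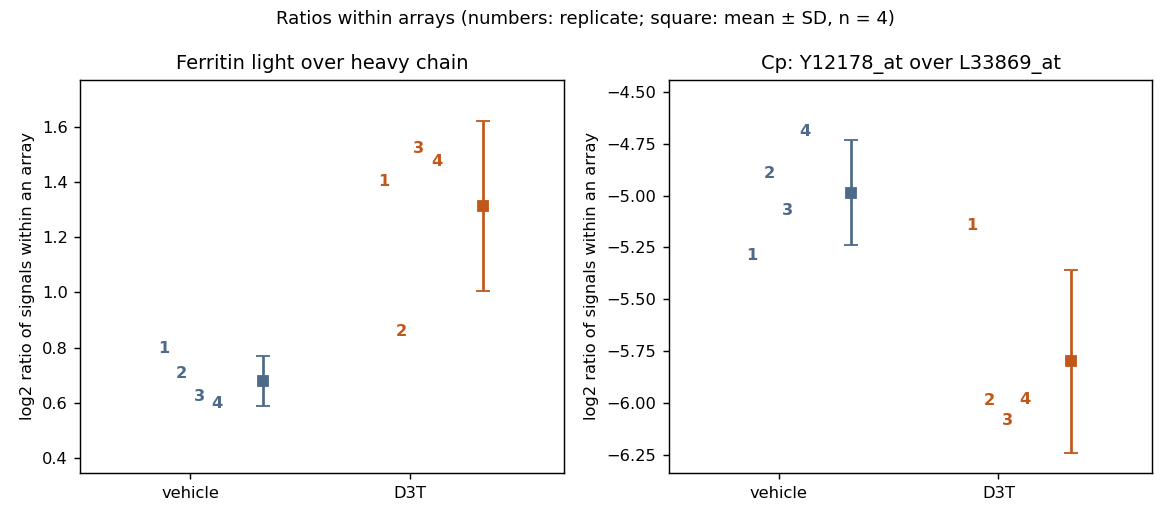
Log2 ratio of 2 probe sets within each array, for ferritin light over heavy chain (left) and for the called over the brightest ceruloplasmin probe set (right). Digits mark the array of that replicate number and squares the mean ± SD of 4 arrays. The ferritin ratio has a mean of 0.68 in vehicle and 1.31 after D3T, with no overlap, whereas D3T replicate 1 lies among the vehicle arrays for ceruloplasmin.

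Transferrin, the plasma iron carrier that hepatocytes secrete, had 3 probe sets, all matched to Tf and also to Srprb, which encodes a subunit of the signal recognition particle receptor, so the genes cannot be told apart here. D38380_at had the highest mean log2 signal of all 8740 probe sets. It read 40885, 59511, 32767 and 41981 in vehicle and 54974, 65674, 83990 and 61721 after D3T. Vehicle replicate 2 lay above D3T replicate 1, and the other 3 vehicle arrays lay below all D3T arrays. The change was 1.54-fold (1.16 to 2.04), with a limma adjusted p of 0.0566. D38380_g_at, of the same sequence entry, read 32774, 45477, 25824 and 32841 in vehicle and 40709, 49717, 62347 and 47267 after D3T, 1.47-fold higher (adjusted p = 0.0689 with limma). Vehicle replicate 2 again lay above D3T replicate 1. U31866_g_at read 36315, 47116, 28885 and 38942 in vehicle and 40591, 57389, 58547 and 44312 after D3T, a 1.33-fold change with a limma adjusted p of 0.137. Both D38380 probe sets passed in 3 of 20 processing alternatives. Without vehicle replicate 2 they passed (limma adjusted p = 0.0157 and 0.0216), at log2 fold changes of 0.78 and 0.71. With all arrays, they passed with array weights (limma adjusted p = 0.0315 and 0.0429). They also passed when only the brightest 30% of probe sets were fitted (limma adjusted p = 0.0391 and 0.0481). With quantile normalization, which gives the brightest probe sets of every array the same values, the log2 fold changes of the 3 were 0.10, 0.15 and -0.02.

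The transferrin receptor gene Tfrc had 1 probe set, M58040_at, dim and variable. It read 50.5, 20.3, 198.5 and 71.3 in vehicle and 139.3, 268.9, 91.8 and 62.2 after D3T, where 20.3 is the floor to which low signals were raised. The groups overlapped, since vehicle replicate 3 lay above 3 of the 4 D3T arrays and vehicle replicate 4 above D3T replicate 4. Vehicle replicates 1 and 2 lay below all D3T arrays. The fold change was 1.96, and its interval ran from 0.715-fold to 5.38-fold (limma adjusted p = 0.346). Its residual SD, 1.15 on the log2 scale, was the highest of the 18 probe sets, whose median was 0.28. A change of the size seen for ferritin lies inside this interval and was not detectable here.

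Ceruloplasmin had 3 probe sets with 1 symbol, and all 3 had negative changes of unequal size. Y12178_at read 253.1, 334.5, 260.4 and 314.4 in vehicle and 185.4, 110.1, 139.0 and 121.0 after D3T. All D3T arrays lay below all vehicle arrays. The means were 290.6 ± 40.1 (SD, n = 4) and 138.9 ± 33.2, and the log2 fold change was -1.08 ± 0.22 (SE), with a limma adjusted p of 0.0125. Among the 340 probe sets called lower, 93 had a larger change. The brightest, L33869_at, read 9889, 9929, 8749 and 8130 in vehicle and 6546, 6976, 9443 and 7647 after D3T. Here D3T replicate 3 lay above vehicle replicates 3 and 4, and the 1.21-fold lower signal (limma adjusted p = 0.204) had an interval from 1.48-fold lower to 1.02-fold higher. The third, rc_AA817854_s_at, read 238.6, 660.2, 815.3 and 918.6 in vehicle and 394.2, 634.5, 332.3 and 527.2 after D3T, with vehicle replicate 1 below every other array (limma adjusted p = 0.556).

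The unequal size was examined within arrays, a comparison chosen after the values were seen. The log2 ratio of Y12178_at to L33869_at was lower after D3T by a mean difference of -0.81, with overlapping groups and an exact two-sided permutation p of 0.0571. The probe sets of this gene were therefore not shown to differ in their change, and the lower ceruloplasmin signal rests on 1 of 3 probe sets, not the brightest.

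Aco1 encodes the aconitase that becomes an iron regulatory protein when its iron-sulfur cluster is lost. Probe set rc_AI176621_at read 1188, 957.9, 1311 and 1341 in vehicle and 1172, 1266, 1253 and 1215 after D3T. The D3T arrays lay inside the vehicle range. The change was 1.03-fold with an interval of 0.842 to 1.26 (limma adjusted p = 0.843), which excludes a change as large as that of the ferritin light chain.

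**Figure D3:**
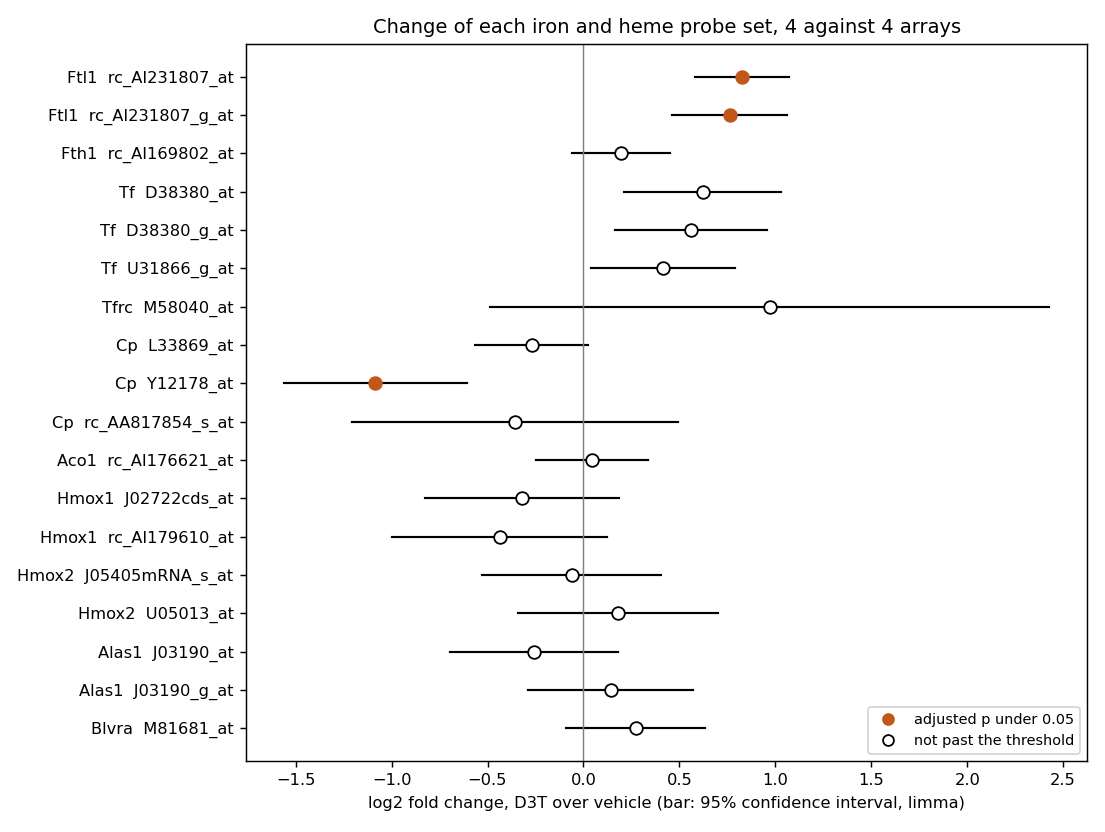
Log2 fold change of each of the 18 probe sets, D3T over vehicle, with its 95% confidence interval from limma (horizontal axis). Filled points have an adjusted p under 0.05. The 2 Ftl1 probe sets at 0.83 and 0.76 and Y12178_at of Cp at -1.08 are filled, and the interval of Tfrc is the widest.

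Hmox1, the inducible heme oxygenase, was not higher on either of its probe sets. J02722cds_at read 153.9, 221.7, 157.1 and 220.9 in vehicle and 117.8, 144.8, 183.6 and 155.9 after D3T. The groups overlapped, with D3T replicates 1 and 2 below all vehicle arrays. The change was 0.801-fold, with an interval of 0.565 to 1.14 (limma adjusted p = 0.370). The other, rc_AI179610_at, read 416.3, 468.1, 435.2 and 311.7 in vehicle and 278.2, 190.3, 326.5 and 455.1 after D3T. D3T replicates 3 and 4 lay within the range of the vehicle arrays, and replicates 1 and 2 lay below it. The change was 0.739-fold, from 0.501 to 1.09 (limma adjusted p = 0.276). In the same samples, 5 of 10 tested genes on a list of Nfe2l2 targets and partner factors were called higher. The list was chosen with earlier results of these data known, so this count is no independent evidence. Gstp1 at 29.9-fold, Akr7a3 at 16.5-fold, Nqo1 at 3.44-fold and Ephx1 at 3.19-fold led that list, which also held 1 gene called lower, the transcription factor gene Maf, on 1 of its 2 probe sets. Gclm, Txnrd1, Mafk and Nfe2l2 itself were not called, and both Nfe2l2 probe sets had negative log2 fold changes (-0.73 and -0.71). Per gene, 9.56% of 3150 tested genes were called, 3.71% higher and 5.84% lower.

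Hmox2 encodes the constitutive heme oxygenase. J05405mRNA_s_at read 556.4, 320.4, 415.8 and 350.9 in vehicle and 396.6, 289.6, 448.6 and 425.8 after D3T, a 0.958-fold change (0.694 to 1.32, limma adjusted p = 0.865). U05013_at read 138.2, 161.9, 110.0 and 116.8 in vehicle and 148.1, 168.8, 112.9 and 168.7 after D3T, a 1.13-fold change (0.791 to 1.63, limma adjusted p = 0.630). The groups overlapped on both, and the changes had opposite signs. A further probe set, named for the pseudogene Hmox2-ps1 and not counted among the 18, was left out by the filter on dim probe sets, and in a fit without that filter its limma adjusted p was 0.742.

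Blvra encodes biliverdin reductase A. M81681_at read 665.0, 836.7, 637.2 and 593.6 in vehicle and 710.0, 734.9, 1034 and 830.0 after D3T. Vehicle replicate 2 lay above 3 of the 4 D3T arrays, and the other 3 vehicle arrays lay below all of them. The change was 1.21-fold (0.940 to 1.55) and did not pass (limma adjusted p = 0.291).

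Alas1 encodes the enzyme that limits heme synthesis in liver. J03190_at read 2782, 2351, 3704 and 3357 in vehicle and 2095, 3611, 2536 and 2075 after D3T, and J03190_g_at, of the same sequence entry, read 1764, 1424, 2327 and 2480 against 2634, 2232, 2168 and 1682. The groups overlapped on both. The changes had opposite signs, 0.836-fold (0.617 to 1.13) and 1.10-fold (0.819 to 1.49), with limma adjusted p-values of 0.408 and 0.655.

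Other genes of these pathways were counted from lists, each gene by its brightest tested probe set with 1 symbol. Of 17 genes of cellular iron handling 5 were tested and 0 passed with limma, although 1 had an unadjusted p under 0.05. That gene, Hfe, which encodes a partner of the transferrin receptors and is the brightest of the 5, was 1.36-fold higher (adjusted p = 0.130 with limma). Its dimmer probe set, named after its value was seen, was 1.64-fold higher and did pass (limma adjusted p = 0.0418). The list median was -0.10 on the log2 scale, against 0.03 over all genes tested. Of the plasma carriers of iron and heme 4 were tested and 0 passed with limma (1 at an unadjusted p under 0.05), with a median of 0.18 that turned to -0.17 with quantile normalization. The brightest, albumin (Alb), which also binds heme, was 1.38-fold higher at a limma adjusted p of 0.106.

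The heme synthesis list had 5 tested genes beside Alas1, all with negative changes and a median of -0.38. They were Alad, Urod, Ppox, Alas2 and Cbr1, the last a carbonyl reductase and no enzyme of the pathway. With limma 0 passed, and 2 had an unadjusted p under 0.05. Alad, which joins the first precursors into a ring, had the brightest signal and was 1.30-fold lower (limma adjusted p = 0.131). Among genes of heme and bilirubin breakdown 2 of 3 tested passed, 1 higher and 1 lower, where 9.56% of all genes tested were called. Abcc2, the canalicular pump for conjugated bilirubin, was 1.91-fold lower, from 1889 ± 298 (SD, n = 4) to 984.3 ± 122, with a limma adjusted p of 0.00513. Gsta1, a glutathione transferase whose protein binds bilirubin, was 2.98-fold higher. Por, which passes electrons to heme oxygenase, was not called.

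Among 9 tested heme-binding proteins of liver 3 passed, 1 higher and 2 lower. Cyb5a, cytochrome b5, was 1.59-fold higher on its brightest probe set, and its other 2, at log2 fold changes of 0.34 and 0.11, were not called. The cytochromes P450 Cyp3a2 (3.28-fold) and Cyp1a2 (2.28-fold) were lower. Another P450 gene, Cyp2e1, was 1.21-fold higher and not called on its brightest probe set (limma adjusted p = 0.122). Its other 2 probe sets, at log2 fold changes of 0.47 and 0.41, were called higher. The median of the 9 genes was 0.07, and -0.03 with quantile normalization. The 3 tested genes of messages with an iron-responsive element, Slc11a2, Slc40a1 and Alas2, gave 0 calls with limma and 0 at an unadjusted p under 0.05, and Alas2, the brightest, had a change of 0.912-fold. Slc11a2 and Slc40a1, which encode iron transporters, also stand in the list of cellular iron handling, and Alas2 in that of heme synthesis. Of the copper proteins beside Cp, Sod1 alone was tested, at 1.13-fold (limma adjusted p = 0.272). In the acute phase list, which fits ceruloplasmin as a plasma protein of inflammation, 4 of 10 genes passed, 1 higher and 3 lower, where 9.56% of all genes tested were called. Fgb, a fibrinogen chain, was 1.74-fold lower, Crp, the C-reactive protein, 1.72-fold and the interleukin-6 receptor gene Il6r 1.67-fold lower, while Orm1, an acid glycoprotein, was 1.57-fold higher. That list's median was -0.19.

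Markers of other cell types bear on these genes, since macrophages recycle red cell iron and red cells carry heme. In bulk liver, fewer cells of a type and less RNA per cell cannot be told apart. Of 7 macrophage markers 4 were tested. The lipopolysaccharide receptor gene Cd14 was called higher and the complement gene C1qb lower, where 9.56% of all genes tested were called. Clec4f and Lyz2 were lower without passing (log2 fold changes -0.48 and -0.74), and all 4 had an unadjusted p under 0.05 in limma. The summed signal of the 4 ran from 4286 to 4553 in vehicle and from 3046 to 3916 after D3T. Most of the vehicle sum came from C1qb and Lyz2, and Cd14 went against it on both of its probe sets. Of 10 red cell markers 4 were tested and 0 passed with limma (2 at an unadjusted p under 0.05), with a summed signal of 14989 to 20649 in vehicle and 10625 to 14427 after D3T. Both sums were lower on every D3T array than on any vehicle array. How often sums of other probe sets stand apart in this way was not counted. Most of the red cell sum came from the beta-globin genes Hbb and Hbb-b1, at log2 fold changes of -0.51 and -0.45. Among the red cell markers the groups stood apart for Hbb alone, where 11.3% of all tested probe sets had all D3T arrays lower. The groups overlapped for Hbb-b1, for Alas2 (-0.13) and for Slc4a1 (0.33), the anion exchanger of the red cell membrane. They also overlapped for the alpha-globin probe set X56325mRNA_s_at, which has several symbols and is not in the sum, at 14444 to 21105 in vehicle and 11665 to 16436 after D3T. The macrophage markers Cd68, Cd163 and Marco were not tested. Their part in the iron and heme results was not tested. The hepatocyte markers were bright on all arrays, with sums of 117284 to 182218 in vehicle and 152514 to 213790 after D3T. Of the 5, Fgb was called lower and none was called higher, and 4 had an unadjusted p under 0.05 in limma. On their brightest probe sets, the other hepatocyte markers had positive log2 fold changes. These were 0.46 for Alb, 0.45 for the antitrypsin gene Serpina1, 0.40 for the transthyretin gene Ttr and 0.13 for the apolipoprotein gene Apoa1. The other Apoa1 probe set went the opposite way, at -0.48, and was called lower. The list median was 0.40, beside 0.62 for D38380_at of Tf. With quantile normalization the log2 fold change of D38380_at was 0.10, and the hepatocyte marker values given here are from the main scaling alone. Of 6 stellate cell and fibroblast markers 4 were tested, and 1 was called, the collagen gene Col3a1 at 1.86-fold lower. In that list 3 had an unadjusted p under 0.05 and the median was -0.78. Of the lymphocyte, endothelial and bile duct markers 3, 2 and 3 were tested and 0 passed with limma (2, 0 and 0 at an unadjusted p under 0.05).

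Ratios of control signals from the ends of a message, a measure of RNA quality, had lower means after D3T. The groups overlapped, and the tests did not show a difference. The ratio of the 3' to the 5' beta-actin control signals ran from 1.45 to 1.59 in vehicle and from 1.17 to 1.47 after D3T, with overlapping groups and an exact two-sided permutation p of 0.0571. For the GAPDH controls it ran from 1.7 to 2.18 in vehicle and from 1.43 to 2.00 after D3T, also with overlap (exact two-sided permutation p = 0.114). With the log2 actin ratio as a covariate, 0 of the 18 probe sets passed in limma, while 7 had an unadjusted p under 0.05. The log2 fold changes of the Ftl1 probe sets were then 0.92 and 0.83 (limma adjusted p = 0.0504 and 0.135) and that of Y12178_at was -0.97 (adjusted p = 0.246 with limma). Over all probe sets, 35 passed in that fit. Only D3T replicate 3 reached the vehicle range of the actin ratio. The ratio and the treatment thus went largely together, and the fit cannot tell them apart well.

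**Figure D4:**
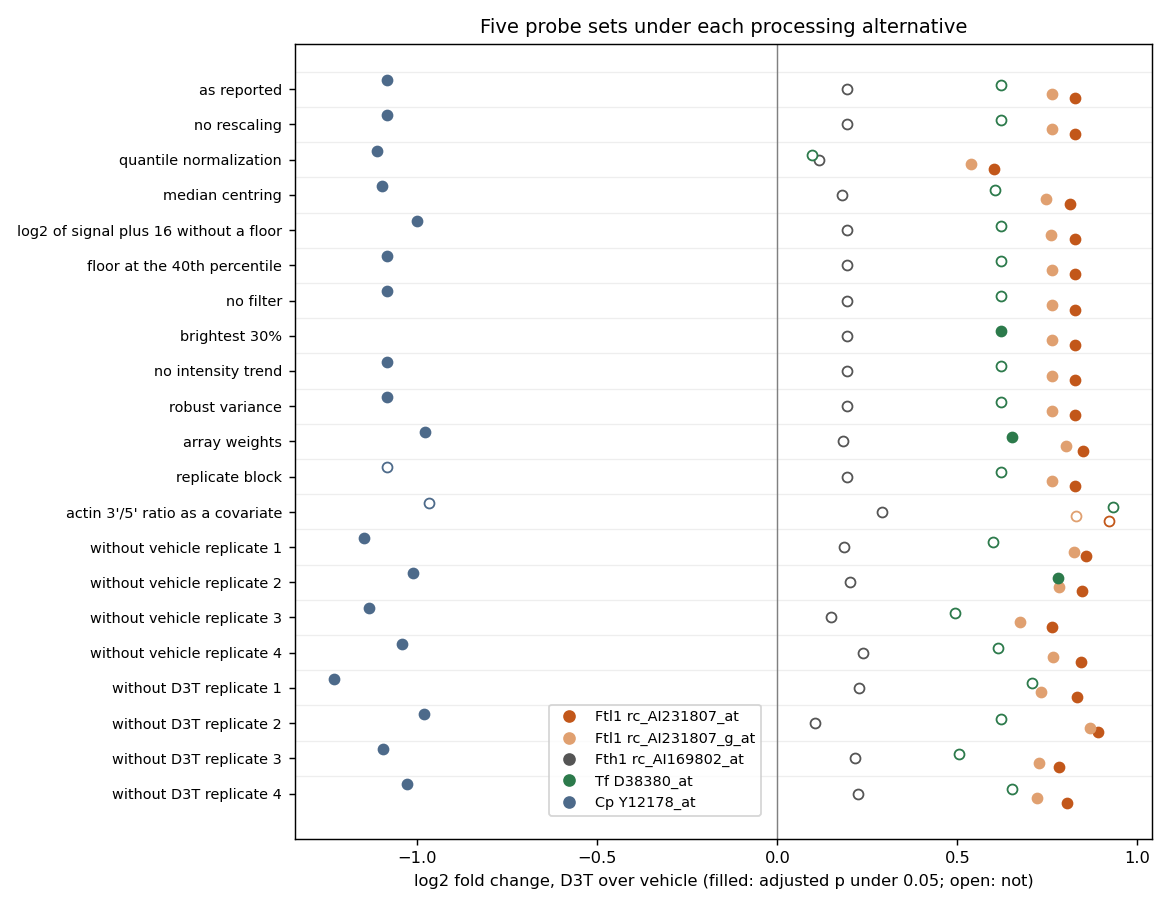
Log2 fold change of 5 probe sets (colours) under each way of processing the arrays (rows). Filled points have an adjusted p under 0.05 and open points do not. The Ftl1 probe sets range from 0.54 to 0.92 and are open with the actin covariate, Y12178_at of Cp is also open with the replicate block, and D38380_at of Tf is filled under 3 of 20 alternatives.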

How the data were processed

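The deposited table holds, on a linear scale, 1 signal intensity for each probe set on each array, made by the authors with MAS5 (the Affymetrix summary of probe pairs), per the submitters' processing notes. The sources used here give neither its version nor detection calls. Deposited 2% trimmed means lay between 500.8 and 501.0, so arrays had been scaled alike. Groups came from the sample titles. Arrays were brought to a common trimmed mean (500), signals under the 20th percentile (20.3) were raised to it, and values were put on the log2 scale. Without the 59 control probe sets, the brightest 60% by mean over all arrays (5244 of 8740) were fitted with limma 3.58.1 (lmFit, eBayes with intensity trend) in R 4.3.3. All 18 members passed that filter. Fold changes are ratios of geometric means, and confidence intervals are unadjusted. Within-array ratios were tested by exact permutation over 70 assignments (scipy 1.17.1). The heavy chain has no probe set of its own, so the shared one was used.

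Of the probe sets, 7006 carry 1 symbol, 308 several and 1426 none, and all 10 members kept their symbols in the RefSeq table (GRCr8). All probe sets of the members are named. In each list, up to 4 genes past the threshold with the largest change are named, or the brightest where none passed. Members and lists were chosen with earlier results of these data known. The script was tested on simulated arrays. Alternatives were other scalings, floors, filters and variance settings, weights per array, a block for the replicate number, the actin ratio as a covariate, and leaving out each array.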

Additional observations from a re-analysis of the deposited data

Results flagged for a closer look

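Arrays standing apart were looked for in the 36 groups of 4 arrays (18 probe sets, vehicle and D3T), where chance gives about 1 in 20. On Ftl1 rc_AI231807_at, vehicle replicate 3 was lowest at 11997, with the next array at 14144. On rc_AI231807_g_at, D3T replicate 2 was lowest at 16964, with the next at 22514. On Fth1 rc_AI169802_at, D3T replicate 2 was highest at 11734, with the next at 9328.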

How the results depend on the processing

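Over all probe sets 560 passed, and 309 did with no filter, 333 with no intensity trend, 290 with the replicate block and 35 with the actin covariate. Without 1 array the count ran from 240 to 695. It fell by more than 1.5 times without vehicle replicate 1 (260), 3 (240) or 4 (301) and without D3T replicate 1 (279) or 4 (307). Of the 18 iron and heme probe sets 3 passed, against 5 with array weights and 0 with the actin covariate. With the brightest 30% 4 passed, and with the replicate block 2 did. The brightest 30% left out some of the 18, Y12178_at of Cp among them. Without 1 array the number ran from 3 to 5, the 5 being without vehicle replicate 2, where both D38380 probe sets of Tf joined. The Ftl1 probe sets passed in 19 of 20 alternatives each and Y12178_at of Cp in 17 of 19. With the replicate block the adjusted p of Y12178_at was 0.0515 in limma. The replicate numbers are not said to mark shared litters or days, so they were not taken as pairs. Same-numbered arrays did not deviate together either (correlations of 0.06, -0.09, 0.01 and -0.20). The light to heavy chain difference was 0.49 with quantile normalization (exact p = 0.0571). It was 0.57 to 0.79 without 1 array (exact p = 0.0571 each) and 0.63 with the replicate block (exact p = 0.125), the smallest p-values those designs allow. The change of U31866_g_at of Tf, uncalled at 0.41, was lost with quantile normalization (-0.0198). Signs also turned for uncalled probe sets with small changes, which were Aco1 with array weights (-0.00054) and U05013_at of Hmox2 with the actin covariate (-0.0529). Without 1 array Aco1 ran from -0.0603 to 0.10, J05405mRNA_s_at of Hmox2 from -0.17 to 0.10 and J03190_g_at of Alas1 from -0.0104 to 0.26. The cause of these changes was not tested.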
